A study of Mus musculus with 4 samples.

Results

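The kidney of mice given the probiotic Lactobacillus casei Zhang (Lac.z) and examined 5 days after ischemia-reperfusion (I/R) injury was set beside the kidney of injured mice without Lac.z examined on day 14. The comparison asks whether the treated day 5 kidney resembles later recovery. A cell barcode was kept where it held at least 200 genes and at most 50% mitochondrial unique molecular identifiers (UMIs, one per captured transcript), which left 7043 Lac.z day 5 and 9572 day 14 barcodes. These 16615 barcodes were part of 37839 kept in the 4 libraries of the series. The 7086 barcodes of mice without Lac.z on day 5 served as a reference only. Cells were sorted into 14 classes by raw UMIs of a few marker genes each, such as C1qa, C1qb and C1qc for macrophages and Lrp2, Cubn, Slc34a1, Slc27a2 and Slc13a3 for proximal tubule.

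All mice were male C57BL/6 animals with I/R injury. Lac.z was gavaged at 1e+09 colony-forming units per day for 4 weeks, ending before the injury. The sources used here do not say what the other mice received by gavage, how old the mice were or how many animals each library holds. Each group was 1 library, so no difference has a replicate check and no test was made. Day after injury, Lac.z and the software version written in the file header (3.0.2 for both day 5 libraries, 3.1.0 for day 14) cannot be told apart in this comparison.

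I/R injury interrupts and then restores blood flow to the kidney. The proximal tubule, which reabsorbs most of the filtered load and burns fatty acids to do so, is the segment most damaged: surviving tubule cells lose transporters, switch on injury genes such as Havcr1 (kidney injury molecule 1) and divide to refill the tubule. Monocytes enter, become macrophages, clear debris and later leave or take on tissue-supporting states, while T cells accumulate more slowly. Type I and type II interferons act through their receptors on interferon-stimulated genes, many of which carry an interferon-stimulated response element near their start.

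The libraries held 76678882 UMIs in 8168 barcodes (Lac.z day 5), 89408767 in 11203 (day 14) and 82727595 in 8424 (day 5). Kept barcodes had medians of 8631, 6463 and 9465.5 UMIs in that order. The median mitochondrial share over all barcodes was 14.3% with Lac.z on day 5, 15.9% on day 14 and 5.25% on day 5. No gate was passed by 595, 1062 and 880 kept barcodes, and 309, 416 and 357 that passed more than 1 gate were left out. Lac.z day 5 and day 14 shared 31 barcode sequences, day 5 shared 15 with Lac.z day 5, and day 5 shared 24 with day 14. In each library and each of the 14 classes, all 7 to 14 marker genes of that class not used for gating were detected.

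In macrophages and proximal tubule, nearly all measured interferon-stimulated genes exceeded their day 14 level in the treated library, so the start regions of named members are shown before the values. The windows are the 250 bases before the RefSeq gene start in GRCm38.p6, 5′ to 3′ on the gene's strand. Capitals mark the letters of a response element, GAAA, any 2 bases and GAAA again, searched on both strands and so also read as TTTC, any 2 bases and TTTC. Isg15 encodes a ubiquitin-like modifier (chr4:156200819-156201068, minus strand), Ifit1 an RNA-binding antiviral protein (chr19:34640639-34640888, plus strand) and Irf7 the factor that amplifies type I interferon (chr7:141266425-141266674, minus strand).
Isg15: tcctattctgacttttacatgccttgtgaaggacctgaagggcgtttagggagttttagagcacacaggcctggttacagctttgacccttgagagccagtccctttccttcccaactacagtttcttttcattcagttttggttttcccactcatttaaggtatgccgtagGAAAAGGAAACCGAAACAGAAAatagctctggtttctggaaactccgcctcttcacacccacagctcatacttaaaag
Ifit1: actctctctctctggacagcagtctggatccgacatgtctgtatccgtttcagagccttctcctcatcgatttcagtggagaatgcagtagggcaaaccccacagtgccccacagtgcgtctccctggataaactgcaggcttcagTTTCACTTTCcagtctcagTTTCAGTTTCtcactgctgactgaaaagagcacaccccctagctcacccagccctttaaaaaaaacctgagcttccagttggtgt
Irf7: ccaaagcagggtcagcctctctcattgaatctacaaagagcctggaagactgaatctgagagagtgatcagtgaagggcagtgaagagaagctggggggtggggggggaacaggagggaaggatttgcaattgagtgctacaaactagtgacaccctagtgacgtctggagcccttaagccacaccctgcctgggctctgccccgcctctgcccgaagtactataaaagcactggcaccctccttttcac
Isg15 held 3 matches that overlap each other, the first 78 bases before the start. Ifit1 held 2, the first 104 bases before the start, and Irf7 held none in this window. Over all 27025 genes with a window, 936 (3.46%) held the letters at least once, and 19 of the 38 interferon-list genes with a window did. A match is a description of letters, not a mapped binding site.

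Proximal tubule barcodes made up almost the same share of the Lac.z day 5 and day 14 libraries, while the immune cells differed. The proximal tubule share was 55.0% with Lac.z on day 5 (95% exact interval 53.8% to 56.2%), 57.6% on day 14 (56.6% to 58.6%) and 17.1% on day 5 (16.3% to 18.0%). The Lac.z to day 14 ratio was 0.955 (0.916 to 0.995), whereas the Lac.z library held 3.21 times and the day 14 library 3.36 times the day 5 share. Intervals of shares and ratios in this text cover counting error only, not the spread between mice.

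Macrophages, the phagocytes that clear dead tubule cells, were 20.8% of Lac.z day 5 barcodes (19.9% to 21.8%), 8.03% of day 14 (7.5% to 8.60%) and 50.3% of day 5 (49.1% to 51.5%). The treated library therefore lay between the untreated ones, 2.59-fold above day 14 (2.38 to 2.83) and 2.41-fold below day 5. Among gated immune barcodes alone, macrophages were 75.6%, 44.8% and 82.8% in the same order, a 1.69-fold difference from day 14 (1.55 to 1.84). Neutrophils, first-wave phagocytes, were 1.22%, 0.575% and 1.43% of barcodes, 2.13-fold above day 14 (1.5 to 3.04). Within immune barcodes that neutrophil ratio was 1.38 (0.974 to 1.98), under 1.5-fold. Monocytes rested on 40 barcodes with Lac.z, 28 on day 14 and 68 on day 5, and were 1.94-fold above day 14 (1.17 to 3.27). Per gated immune barcode the monocyte ratio was 1.26 (0.760 to 2.13), also under 1.5-fold.

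T cells went the other way. They were 3.62% of Lac.z day 5 barcodes, 7.09% of day 14 and 5.87% of day 5, so the treated share was 1.96-fold below day 14 (1.69 to 2.27) and also 1.62-fold below day 5. Per gated immune barcode, T cells were 13.1%, 39.6% and 9.66%, which put the treated library 3.01-fold below day 14 (2.6 to 3.49). B-lineage cells were few, at 24, 65 and 49 barcodes, and were 1.99-fold below day 14 (1.23 to 3.33). Dendritic cells, which present antigen to T cells, were 0.809%, 1.04% and 1.33%, a 1.29-fold gap from day 14 whose interval ran from 0.923 to 1.82. Per gated immune barcode, dendritic cells were 2.94%, 5.83% and 2.18%, which put the treated library 1.98-fold below day 14 (1.42 to 2.80). Natural killer cells rested on 11, 20 and 13 barcodes, and their gap from day 14 was 1.34-fold of all barcodes (0.611 to 3.09) and 2.06-fold of immune barcodes (0.939 to 4.75), so their direction was not resolved by counting. Endothelial cells (1.58%, 2.07% and 2.43%) were within 1.5-fold of day 14. Stromal cells, at 5, 28 and 17 barcodes, were 4.12-fold below day 14 (1.57 to 13.7).

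The distal nephron did not reach the day 14 share. Thick ascending limb, the salt-reabsorbing segment that makes uromodulin, was 0.852% with Lac.z on day 5, 2.40% on day 14 and 0.677% on day 5, 2.82-fold below day 14 (2.11 to 3.81). Distal convoluted tubule was 1.19%, 2.36% and 0.607%, 1.98-fold below day 14 (1.53 to 2.57). Intercalated and principal cells, the acid-base and water-handling cells of the collecting duct, were each 2.07-fold below day 14. Of gated tubule barcodes, the 4 distal classes were 5.10% with Lac.z on day 5, 10.3% on day 14 and 10.4% on day 5. The treated library was thus 2.03-fold below day 14 (1.73 to 2.38) and 2.04-fold below day 5 in the distal part of its tubule cells, and its larger tubule share was nearly all proximal tubule.

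**Figure D1:**
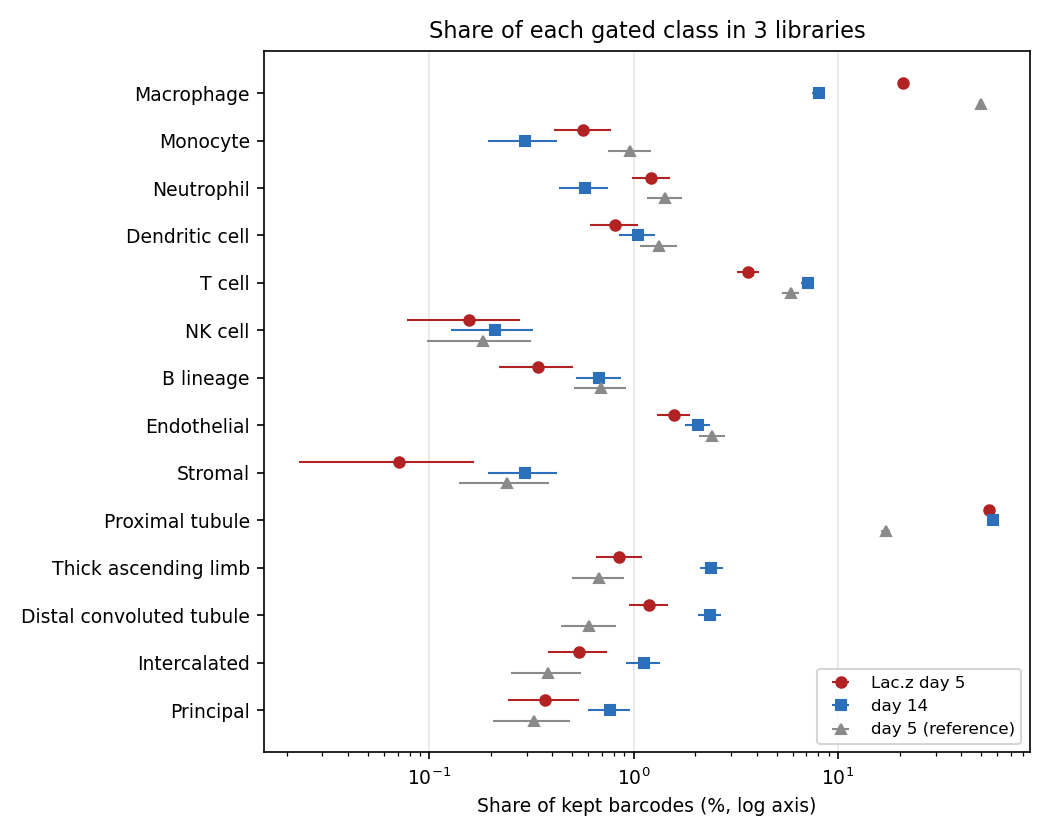
Share of kept barcodes in each of 14 gated classes (percent, log axis) for Lac.z day 5, day 14 and day 5, 1 library each, with 95% exact intervals. Proximal tubule is at 55.0% and 57.6% in Lac.z day 5 and day 14 against 17.1% on day 5, while macrophages step from 50.3% over 20.8% to 8.03%.

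Within cells, the question was whether gene expression also lay near day 14. For each class and library, summed UMIs were expressed per 1000000 (CPM). A gene with at least 50 UMIs over the compared libraries was measured, and higher or lower means at least 1.5-fold with 1 UMI added to each sum. Macrophages were the largest immune class: 1468 with Lac.z on day 5 (median 11147.5 UMIs), 769 on day 14 (9122) and 3564 on day 5 (11654). Of 10262 genes measured, 1335 (13%) were higher and 661 (6.44%) lower with Lac.z on day 5 than on day 14, with a median log2 ratio over all genes of 0.13. Scaling by trimmed means (TMM) in place of totals gave 1013 higher and 833 lower, with a log2 shift of 0.08.

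Interferon-stimulated genes were higher in treated macrophages almost throughout. Of 49 measured list members, 46 were higher than on day 14 and none lower, with a median log2 ratio of 1.36 against 0.13 for all genes. Irf7, the amplifying factor, was at 527 CPM with Lac.z on day 5, 98.8 on day 14 and 37.2 on day 5, 5.33-fold above day 14 (4.95 to 5.75). Isg15, which carries overlapping response-element letters, was at 447, 49.7 and 54.2 CPM, 8.99-fold above day 14 (8.10 to 10.0). Ifit1 was at 145, 19.0 and 14.3 CPM (7.60-fold, 6.42 to 9.06). In these antiviral genes both untreated libraries were low and the treated library stood alone. Ifit3b was 8.05-fold above day 14, but reads of Ifit3 and Ifit3b, near-identical copies, may not be separable. The 3 members within 1.5-fold were the guanylate-binding GTPases Gbp3, at 47.2, 40.7 and 27.9 CPM, Gbp2 (1.40-fold) and Gbp7 (1.42-fold).

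The list as a whole took 200 UMIs per treated macrophage against 57.0 on day 14 and 56.1 on day 5. Against day 5, 47 of 49 members were higher with Lac.z (7.47% of all genes in that pairing), and on day 14 28 of 49 were higher than on day 5 (10.3% of all genes). These pairings share libraries, so their values are given side by side only. The interferon list reached a median of 175 UMIs per 10000 UMIs of a treated macrophage, with a 10th percentile of 40.9 and a 90th of 317. On day 14 the median was 45.9 and the 90th percentile 120, and on day 5 they were 39.2 and 81.8. The median treated macrophage was thus above the 90th percentile of either untreated library.

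Irf7 had at least 1 UMI in 81.7% of treated macrophages, 36.9% on day 14 and 22% on day 5. Thinned to 2000 UMIs a barcode, which left out 20, 11 and 253 shallower macrophages, the shares were 56.2%, 14.6% and 6.58%. In distal convoluted tubule, read as the level of free RNA, Irf7 was found in 5.95%, 3.1% and 2.33% of barcodes, whose median UMIs were 6769.5, 5444 and 8374. The macrophage shares were far above that level in each library.

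Class I antigen presentation genes moved with the interferon group to a smaller extent: 6 of 19 were higher than on day 14 and none lower, with a median log2 ratio of 0.46. H2-T22, a nonclassical class I gene, was at 130, 55.7 and 40.6 CPM (2.34-fold, 2.11 to 2.6), and H2-Q7 (2.11-fold) has close copies that may share its reads. Pdia3, a chaperone of the peptide-loading complex, was at 310 CPM with Lac.z, 157 on day 14 and 314 on day 5, so here the treated library matched day 5 within 1.5-fold.

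Class II antigen presentation genes, which show peptides to CD4 T cells, were lower than on day 14 in 11 of 13 measured members and higher in none, with a median log2 ratio of -1.44. H2-Ab1 was at 3254 CPM with Lac.z on day 5, 10287 on day 14 and 2813 on day 5, 3.16-fold below day 14 (3.13 to 3.20). Cd74, the invariant chain, was at 9113, 27772 and 8483 CPM, 3.05-fold below day 14 (3.03 to 3.07). H2-Ob, H2-Oa and H2-Aa showed the lowest ratios of the list, 4.70-fold, 4.59-fold and 3.33-fold below day 14. Only Cd86, at 186, 173 and 144 CPM, and Cd40, at 30.4, 26.9 and 19.1 CPM, both co-stimulatory receptors, were within 1.5-fold of day 14. Treated and untreated day 5 macrophages were close: the list median between them was 0.10, while day 14 was 1.17 above day 5, with 11 of 13 higher.

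The class II difference was also one of spread among cells. The sum of 4 class II genes per 10000 UMIs had a 10th percentile of 0.889, a median of 179 and a 90th percentile of 600.0 in treated macrophages. On day 5 these were 1.00, 128 and 566, and on day 14 they were 350, 641 and 891. Both day 5 libraries therefore held many macrophages with almost no class II RNA, and day 14 held few. H2-Ab1 was found in 79.5% of treated, 99.2% of day 14 and 80.9% of day 5 macrophages (67.7%, 98.8% and 64.9% at 2000 UMIs), against 46.3%, 42.7% and 38.8% of proximal tubule barcodes. The dendritic cell marker list summed to 12794, 38467 and 11700 CPM in macrophages, with all 11 genes detected. That sum was nearly all H2-Ab1 and Cd74, which are themselves class II list genes. It therefore does not show how the other dendritic cell markers differed. The part of dendritic cell RNA in the class II result was not tested.

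**Figure D2:**
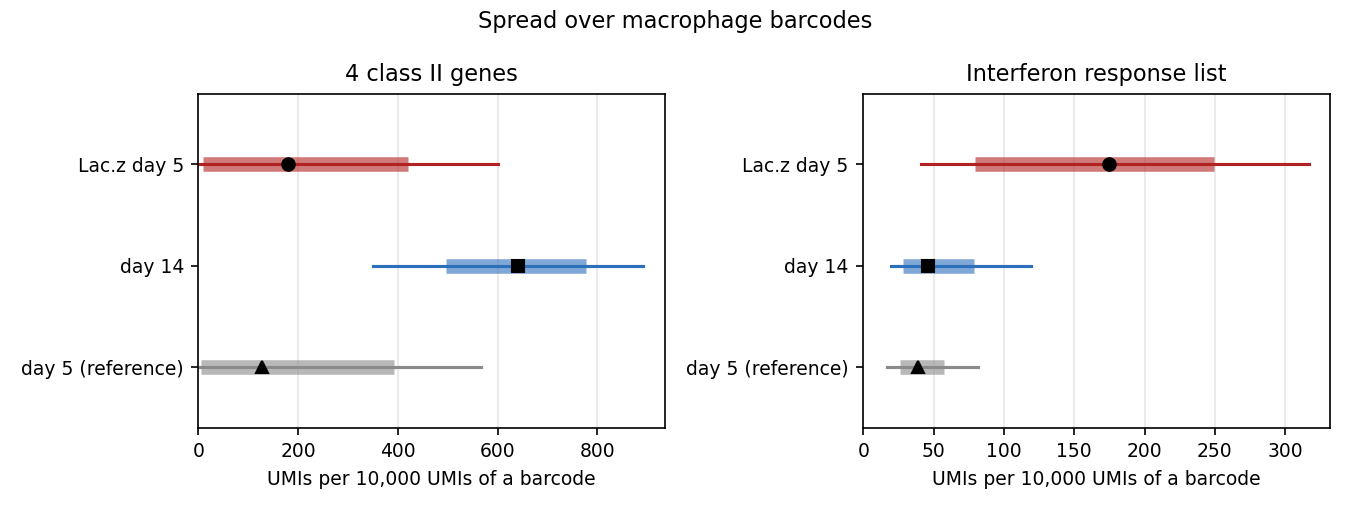
Spread among macrophages of 4 class II genes and of the interferon list, in UMIs per 10000 UMIs of a barcode: black point, median; thick line, 25th to 75th percentile; thin line, 10th to 90th, 1 library each for Lac.z day 5, day 14 and day 5. The treated interferon median of 175 lies above the day 14 90th percentile of 120, and the day 14 class II 10th percentile of 350 lies above the treated median of 179.

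Genes of newly arrived monocyte-derived macrophages were higher than on day 14 in 10 of 20 members and lower in none, with a median log2 ratio of 0.57. Plac8 was at 214 CPM with Lac.z on day 5, 13.6 on day 14 and 13.7 on day 5 (15.8-fold above day 14, 13 to 19.4). Ly6a, an interferon-inducible surface protein, was at 858, 58.6 and 24.3 CPM (14.6-fold, 13.3 to 16.1). Ly6c2, the marker of inflammatory monocytes, was at 69.9, 6.66 and 1.96 CPM (10.5-fold, 7.91 to 14.2). All 3 were high in the treated library alone. Ly6c2 was found in 10.6% of treated, 1.43% of day 14 and 1.12% of day 5 macrophages, and in 0.568%, 0.199% and 0.247% of proximal tubule barcodes, whose median depths were 8543.5, 7020.5 and 7841.5 UMIs. At 2000 UMIs the macrophage shares were 4.61%, 0.488% and 0.288%. The monocyte marker list summed to 15610, 13421 and 21145 CPM in macrophages, within 1.5-fold between the treated and day 14 libraries. That sum was mostly Lyz2, at 13532, 11992 and 19698 CPM, which is also among the macrophage markers. Csf1r, shared in the same way, was at 585, 789 and 632 CPM. The sum therefore does not show how the other monocyte markers differed.

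Lipid-handling and repair genes split. Of 37 measured, 15 were higher than on day 14 and 2 lower, with a median of 0.29. Gpnmb, a lysosomal glycoprotein of lipid-laden macrophages, was at 239 CPM with Lac.z on day 5, 12.9 on day 14 and 198 on day 5 (18.5-fold above day 14, 15.1 to 22.9). Fabp5, a fatty acid carrier, was at 750, 127 and 733 CPM (5.91-fold), and Syngr1 at 71.0, 13.3 and 84.6 CPM (5.33-fold). Arg1, which breaks down arginine and marks repair-type macrophages, was at 167, 36.9 and 276 CPM (4.53-fold, 4.00 to 5.14). In these 4 genes the treated macrophages lay within 1.5-fold of day 5 or between it and day 14. Lower than on day 14 were Cd163, the haemoglobin scavenger receptor, at 5.13, 15.4 and 14.9 CPM, and the elastase Mmp12, at 96.5, 239 and 139 CPM. Gpnmb was detected in 16.1%, 2.47% and 21.9% of macrophages (8.97%, 1.02% and 11% at 2000 UMIs) against 0.392%, 0.589% and 1.68% of T cells, whose median depths were 4544, 4421 and 4752.5 UMIs.

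Several inflammatory and immediate early genes, like class II, were high on day 14 and low in both day 5 libraries. Inflammatory cytokines and chemokines were lower with Lac.z on day 5 in 12 of 31 members and higher in 5, with a median of -0.37. Il1b was at 605 CPM with Lac.z, 3089 on day 14 and 581 on day 5, 5.10-fold below day 14 (4.99 to 5.22). Tnfaip3, an inhibitor of NF-kB signalling, was at 53.5, 277 and 64.3 CPM (5.18-fold below), and Il6 was 5.51-fold below day 14 on 23 and 52 UMIs. Outside the list, Nlrp3, the inflammasome sensor, was at 56.3, 260 and 53.2 CPM (4.62-fold below, 4.28 to 4.98). In the opposite direction, Cxcl10, an interferon-induced T cell attractant, was at 247, 98.1 and 102 CPM (2.52-fold above, 2.33 to 2.72), Ccl6 at 1057, 524 and 1439 CPM, and Ccl24 1.99-fold above on 68 and 14 UMIs.

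Immediate early genes, which respond within minutes to stimulation and to cell handling, were lower than on day 14 in 13 of 23 members and higher in 1, with a median of -0.69. Klf4 was at 90.2, 456 and 103 CPM (5.05-fold below, 4.76 to 5.36) and Fosb at 194, 904 and 171 CPM (4.65-fold below, 4.47 to 4.85). The exception, Ier3, was at 721, 453 and 1079 CPM. The median of this list was -0.05 between the treated and untreated day 5 macrophages and 0.72 for day 14 over day 5. Of 13 measured glucocorticoid-response genes 6 were lower than on day 14 and none higher, among them the metallothioneins Mt2, at 24.2, 106 and 47.4 CPM, and Mt1 (2.53-fold below). Whether handling of the tissue differed was not tested.

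Cell cycle genes were higher than on day 14 in 16 of 29 members and lower in none (median 0.59). Hmmr was at 15.5, 6.26 and 13.4 CPM, Ube2c at 49.8, 22.1 and 35.7 CPM, and Birc5 at 59.5, 28.2 and 39.3 CPM, 2.48-fold, 2.25-fold and 2.11-fold above day 14. Mki67, the proliferation antigen, was at 71.6, 65.8 and 59.0 CPM and within 1.5-fold. Barcodes with UMIs of at least 3 of 6 mitotic genes were 9.06% of treated macrophages (7.64% to 10.6%), 3.64% on day 14 (2.43% to 5.22%) and 5.39% on day 5 (4.67% to 6.18%). Glycolysis genes were higher in 3 of 17 (Hk2, Pgam1 and Slc16a3, 1.70-fold to 1.76-fold) and lower in none, a share near the 13% of all genes that were higher. The resident-like list gave 2 higher and 3 lower of 18. Its members Cd83, at 234, 748 and 238 CPM, and Cd14, at 904, 2166 and 1022 CPM, were lower than on day 14. Cx3cr1, the fractalkine receptor, was at 488, 559 and 482 CPM.

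Single genes at the ends of the macrophage ranking outside these groups were as follows. Chil3, a chitinase-like protein of monocytes that also serves in the monocyte gate, was at 29.6 CPM with Lac.z, 1.33 on day 14 and 28.4 on day 5 (22.2-fold, 12 to 46.6). Slfn4 had 424 UMIs with Lac.z, 3 on day 14 and 44 on day 5, a ratio to day 14 of 58.0 (19.7 to 282). Cfb, complement factor B, was at 39.3, 2.93 and 5.07 CPM (13.4-fold), and Treml2 at 41.0, 3.86 and 14.5 CPM (10.6-fold). Lyz1, a lysozyme close in sequence to the abundant Lyz2, was 4.95-fold below day 14, with 45.3% of its day 14 UMIs in 4 barcodes. Not from the ends of the ranking but named whatever its value, Vcam1, an adhesion molecule, was at 134, 211 and 87.1 CPM. Its log2 ratio to day 14 of -0.65 was -0.55, under 1.5-fold, with barcodes of 2 gates assigned. Proximal tubule markers (14 of 14 detected) summed to 398, 506 and 263 CPM in macrophages, and 8 of 13 measured transporter genes of the proximal tubule were lower than on day 14. Of that sum Gatm was 253, 221 and 175 CPM and Kap 45.6, 175 and 39.8 CPM. Macrophages in which Kap, Miox, Gatm, Fbp1, Slc22a6 and Slc5a2 took at least 0.5% of UMIs were then left out. Without them, the interferon median was 1.35, the class II median -1.44 and the inflammatory median -0.37. The number left out is not given, and tubule RNA under this cutoff remained. These medians therefore do not show how much tubule RNA adds to the macrophage values.

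**Figure D3:**
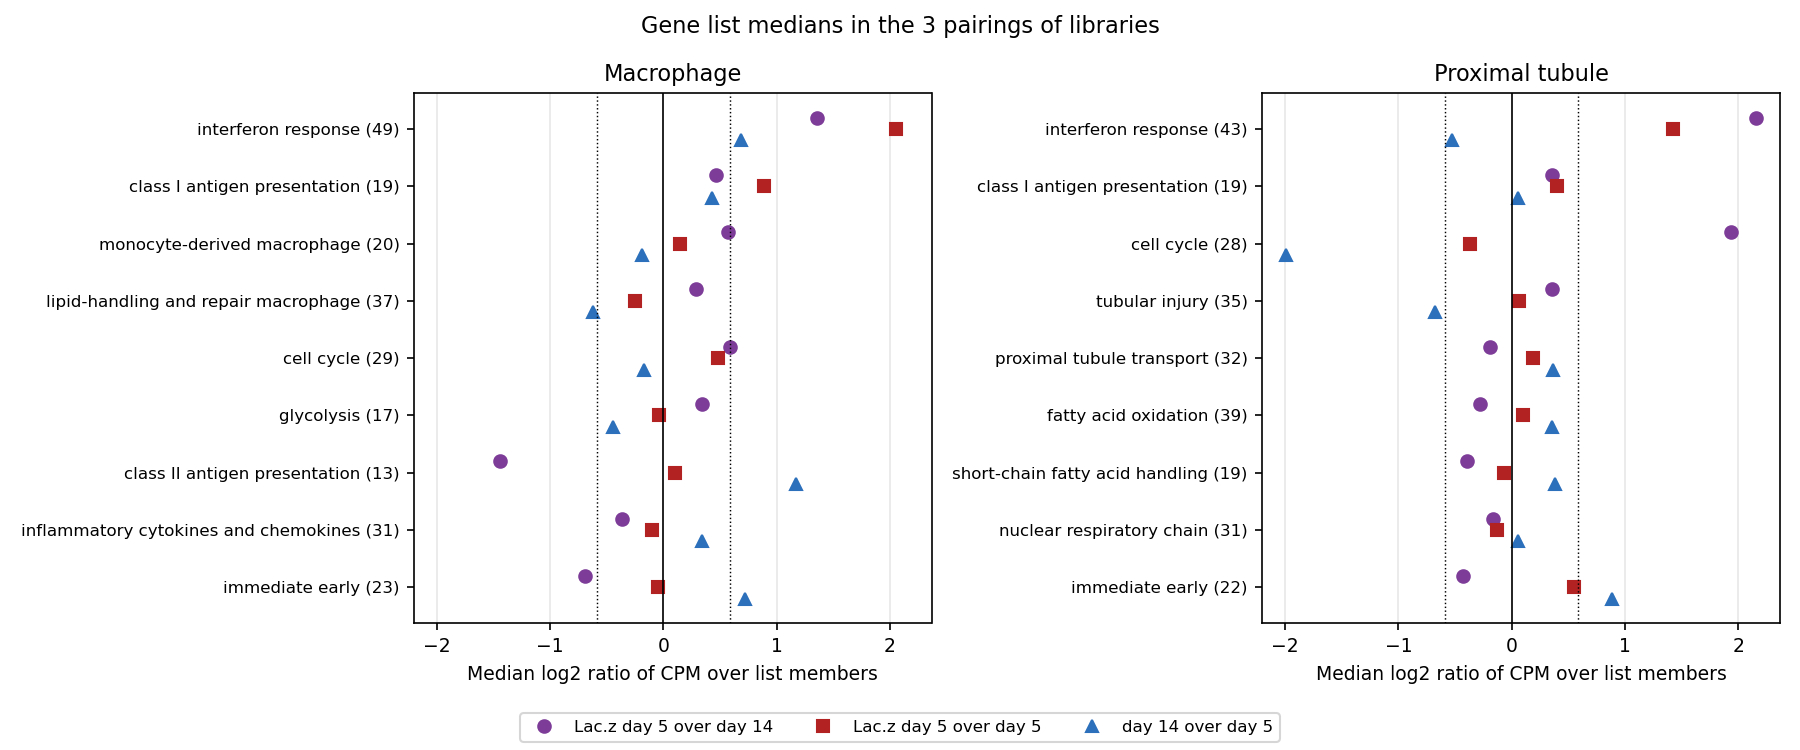
Median log2 CPM ratio of fixed gene lists in macrophages and proximal tubule for Lac.z day 5 over day 14, Lac.z day 5 over day 5 and day 14 over day 5, with the number of measured members in brackets and dotted lines at 1.5-fold. In macrophages the class II median is -1.44 against day 14 and 0.10 against day 5, and in proximal tubule the cell cycle median is 1.94 against day 14 and -0.37 against day 5.

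Proximal tubule cells numbered 3874 with Lac.z on day 5, 5516 on day 14 and 1214 on day 5. Of 12249 genes measured, 1148 (9.37%) were higher and 751 (6.13%) lower with Lac.z on day 5 than on day 14, and the all-gene median was 0.01. Among the 2577 genes at a mean of at least 50 CPM the balance turned, with 73 higher and 112 lower. Interferon-stimulated genes led here too: 41 of 43 measured members were higher and none lower, with a median log2 ratio of 2.16. Isg15 was at 25.7 CPM with Lac.z on day 5, 0.869 on day 14 and 2.58 on day 5 (29.5-fold above day 14, 21.9 to 40.8). Ifit1 was at 58.4, 2.22 and 5.67 CPM (26.3-fold, 21.8 to 32.0), Rsad2, the antiviral enzyme viperin, at 18.0, 0.618 and 1.29 CPM (29.1-fold), and Irf7 at 56.4, 4.00 and 7.55 CPM (14.1-fold, 12.2 to 16.4). These 4 genes were low in both untreated libraries. Apol9a (6.13, 0.0965 and 0.859 CPM) and Apol9b (7.87, 0.154 and 0.515 CPM) are near-identical genes whose separate levels are uncertain. Cxcl10 was 2.78-fold above day 14, and Ly6e (1.11-fold) and Samhd1 (1.23-fold) were within 1.5-fold.

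The interferon list took 10.1 UMIs per treated proximal tubule cell, 2.90 on day 14 and 3.33 on day 5. Against day 5, 36 of 42 members were higher with Lac.z (5.3% of all genes, and 8.87% passed in either direction), and on day 14 15 of 34 were lower than on day 5 (7.94% of all genes). Macrophage markers (12 of 12 detected) summed to 452 CPM in treated proximal tubule, 464 on day 14 and 613 on day 5, a sum that was mostly Apoe, at 381, 426 and 438 CPM. The other 11 summed to 71.5, 38.0 and 175 CPM, 1.88-fold above day 14 in the treated cells. Among them, Lyz2 was at 46.1, 19.8 and 122 CPM, Ctss at 11.7, 5.95 and 20.9 CPM and Trem2 at 1.64, 0.425 and 5.41 CPM. The 11 together were highest on day 5. In macrophages themselves the interferon list summed to 16005 CPM with Lac.z, 5834 on day 14 and 4393 on day 5. Within the treated library the list summed to 1035 CPM in proximal tubule, 906 in distal convoluted tubule and 1336 in thick ascending limb. Irf7 alone was at 56.4 CPM in treated proximal tubule and 8.40 in treated distal convoluted tubule. How much free macrophage RNA adds to the tubule values was not tested.

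Dividing tubule cells were more frequent in both day 5 libraries than on day 14. Cell cycle genes were higher than on day 14 in 18 of 28 measured members and lower in none, with a median log2 ratio of 1.94. Cenpf, a kinetochore protein, was at 13.3 CPM with Lac.z on day 5, 0.309 on day 14 and 11.5 on day 5 (43.1-fold above day 14, 26.3 to 76.0). Hmmr was at 7.63, 0.251 and 12.4 CPM (30.4-fold), and Ccnb1, the mitotic cyclin, had 133, 4 and 61 UMIs (45.5-fold, 17.4 to 169). Mki67 was at 16.2, 1.24 and 22 CPM (13.1-fold, 10.1 to 17.2). Against day 5, none of 28 were higher and 9 lower with Lac.z (3.57% of all genes were lower), and 19 of 27 were lower on day 14 than on day 5. Cells with UMIs of at least 3 of the 6 mitotic genes were 44 of 3874 (1.14%, 0.826% to 1.52%) with Lac.z on day 5. On day 14 they were 7 of 5516 (0.127%, 0.0510% to 0.261%), and on day 5 they were 17 of 1214 (1.40%, 0.818% to 2.23%). Foxq1, a forkhead factor outside the list, was at 11.3, 0.483 and 0.601 CPM (23.4-fold).

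Tubular injury genes were mixed: 12 of 35 were higher and 6 lower than on day 14, with a median of 0.36. Havcr1 was at 50.5 CPM with Lac.z on day 5, 31.2 on day 14 and 65.8 on day 5 (1.62-fold above day 14, 1.51 to 1.73). That call was lost under 5 alternatives, with log2 ratios of 0.01 to 0.57 against 0.69. In 1 of the 5 (0.44), barcodes with at least 2 Havcr1 UMIs were left out. That removal selects on Havcr1 itself, so it is no check of this gene. Krt20, a keratin of damaged tubule, was at 5.81, 1.52 and 5.75 CPM (3.81-fold, 2.93 to 4.99), but its log2 ratio fell from 1.92 to 0.47 without the top 5% of barcodes by UMIs. Ccl2, the monocyte attractant, was at 43.4, 5.89 and 23.4 CPM (7.38-fold, 6.53 to 8.36), S100a6 at 94.1, 17.4 and 195 CPM (5.42-fold) and the fibrinogen chain Fgb at 47.6, 9.27 and 18.2 CPM (5.13-fold). Krt8, Anxa1 and Cd24a were lower than on day 14, by 2.01-fold, 2.08-fold and 2.00-fold. Lcn2 (1.29, 1.06 and 11.3 CPM) and Vcam1 (28.5, 20.2 and 32.3 CPM) were within 1.5-fold of day 14. Cells with a Lcn2 UMI were 28 of 3874 (0.723%), 45 of 5516 (0.816%) and 11 of 1214 (0.906%), so the day 5 level rested on 11 cells.

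Barcodes with at least 2 Havcr1 UMIs and no gate but proximal tubule were counted as Havcr1 tubule: 169 with Lac.z on day 5 (4.34%), 188 on day 14 (3.39%) and 74 on day 5 (5.93%). These shares are of the 3898, 5540 and 1247 barcodes that passed the proximal tubule gate or were Havcr1 tubule. The treated share was 1.28-fold above day 14 (1.03 to 1.58). Of the Havcr1 tubule barcodes 85.8%, 87.2% and 55.4% passed the proximal tubule gate. Those that passed were 3.74% of the treated proximal tubule cells and carried 24.3% of the injury-list UMIs, against 2.97% and 27.7% on day 14. Without them, the injury list in proximal tubule gave 7 higher and 10 lower with a median of -0.36, so the direction of its median turned. A median counts each member alike, whereas a sum is led by abundant members. Summed over members, with the Havcr1 barcodes included, the list took 74.4 UMIs per treated proximal tubule cell, 43.2 on day 14 and 68.4 on day 5. Within Havcr1 tubule, whose median depths were 12847, 13651 and 15389 UMIs, S100a6 was at 2344, 414 and 7707 CPM (5.65-fold above day 14) and Krt20 at 86.9, 27.4 and 121 CPM (3.17-fold). Lcn2 was at 41.0, 12.3 and 213 CPM and Vim, a filament of dedifferentiated cells, at 201, 83.3 and 369 CPM. In these 4 genes the treated injured cells lay between day 14 and day 5, while other injury genes, picked after their values were seen, did not. Krt8, at 302, 656 and 675 CPM, was below both untreated libraries. The fibrinogen chains Fgb (126, 30.5 and 19.5 CPM) and Fgg (415, 174 and 76.4 CPM) and the lipid droplet protein Plin2 (407, 219 and 303 CPM) were above both. Spp1, at 20349, 19164 and 21938 CPM, and Vcam1, at 426, 408 and 477 CPM, were alike across the 3 libraries within 1.5-fold. Isg15 was 40.8-fold above day 14 in Havcr1 tubule (18.4 to 112), at 83.9, 2.06 and 3.60 CPM.

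Transport and metabolic genes of mature proximal tubule were mostly within 1.5-fold of day 14, with more of the remainder lower than higher. Of 32 transporter genes 1 was higher and 7 lower (median -0.19). Slc22a7, an organic anion transporter, was at 1.06 CPM with Lac.z on day 5, 10.2 on day 14 and 0.773 on day 5 (9.65-fold below day 14, 6.99 to 13.7). Slc7a13, the cystine and aspartate carrier of the S3 segment, was at 65.1, 172 and 84.7 CPM (2.65-fold below, 2.53 to 2.77), and Slc22a13 at 10.5, 27.1 and 3.86 CPM. These 3 genes were low in both day 5 libraries. Slc22a6, the organic anion transporter OAT1, was at 343, 465 and 347 CPM and within 1.5-fold. The 1 higher gene was Slc13a1, the sulfate cotransporter, at 1597, 794 and 1217 CPM (2.01-fold, 1.99 to 2.04). Kap, an androgen-regulated proximal tubule gene among the gate-independent markers, was at 7968, 23664 and 10106 CPM.

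Fatty acid oxidation genes numbered 1 higher and 5 lower of 39 (median -0.28). Acsm3 was at 22.5, 82.1 and 50.1 CPM (3.65-fold below day 14, 3.39 to 3.94), the peroxisomal enzyme Ehhadh at 118, 257 and 92.9 CPM (2.18-fold below) and Pdk4, which diverts pyruvate from oxidation, at 125, 237 and 57.0 CPM (1.90-fold below). Cyp4a12a, an omega-hydroxylase with close copies, was 2.62-fold above day 14. Cyp4a14, a PPAR-alpha target, was at 242 CPM with Lac.z, 205 on day 14 and 49.1 on day 5, so here the treated tubule was within 1.5-fold of day 14 (1.18-fold, 1.14 to 1.21) and far above day 5. It was detected in 47.5%, 42.0% and 19.4% of proximal tubule cells (27.3%, 23.4% and 8.12% at 2000 UMIs) against 1.16%, 2.21% and 0.168% of macrophages. Reads of Cyp4a14 and of close copies may not be separable.

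Short-chain fatty acid handling genes were lower than on day 14 in 6 of 19 members and higher in none (median -0.39). Slc5a8, which takes up lactate and short-chain fatty acids in the S3 segment, was at 76.5, 170 and 48.1 CPM (2.23-fold below, 2.13 to 2.32), and the monocarboxylate carrier Slc16a4 at 17.4, 38.5 and 18.7 CPM (2.21-fold below). The S1 counterpart Slc5a12, at 360, 242 and 269 CPM, was within 1.5-fold (1.49). Of 13 NAD synthesis genes 1 was higher, Nmrk1, the nicotinamide riboside kinase, at 128, 67.6 and 119 CPM, and none lower. None of 31 nuclear respiratory chain genes and none of 16 heat shock chaperones passed 1.5-fold in either direction. Gluconeogenesis and amino acid genes numbered 2 higher and 4 lower of 23, with the glycine cleavage enzyme Gldc at 110, 41.9 and 68.9 CPM and glucose-6-phosphatase G6pc at 344, 578 and 254 CPM.

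The lowest genes of the proximal tubule ranking were high on day 14 alone. Nr1d1, the clock repressor REV-ERB alpha, was at 25.5, 161 and 21.9 CPM (6.31-fold below day 14, 5.91 to 6.75). Within the 18 clock genes 5 were lower, Nfil3 and Npas2 by 3.06-fold and 3.07-fold, and 3 were higher, among them Cry1 and Per2 by 3.43-fold and 1.56-fold. The sources used here give no hour of tissue collection. Scd1 and Scd2, stearoyl-CoA desaturases, were 8.42-fold and 10.7-fold below day 14, Bcat1 9.50-fold, Mfsd2a 5.79-fold, Serpina1a 7.72-fold (13.4, 103 and 2.66 CPM) and H2-Q10 5.96-fold. Serpina1a and H2-Q10 belong to families of near-identical copies. Immediate early genes were lower in 10 of 22 and higher in none (median -0.43), with Egr1 at 57.9, 149 and 74.5 CPM. Complement genes numbered 4 higher and 3 lower of 16. C3, the central component, was at 145, 58.4 and 70.8 CPM and C4b at 44.8, 15.0 and 42.8 CPM. H2-Ab1 (140, 141 and 158 CPM) and Cd74 (250, 276 and 363 CPM) were within 1.5-fold in proximal tubule, unlike in macrophages.

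**Figure D4:**
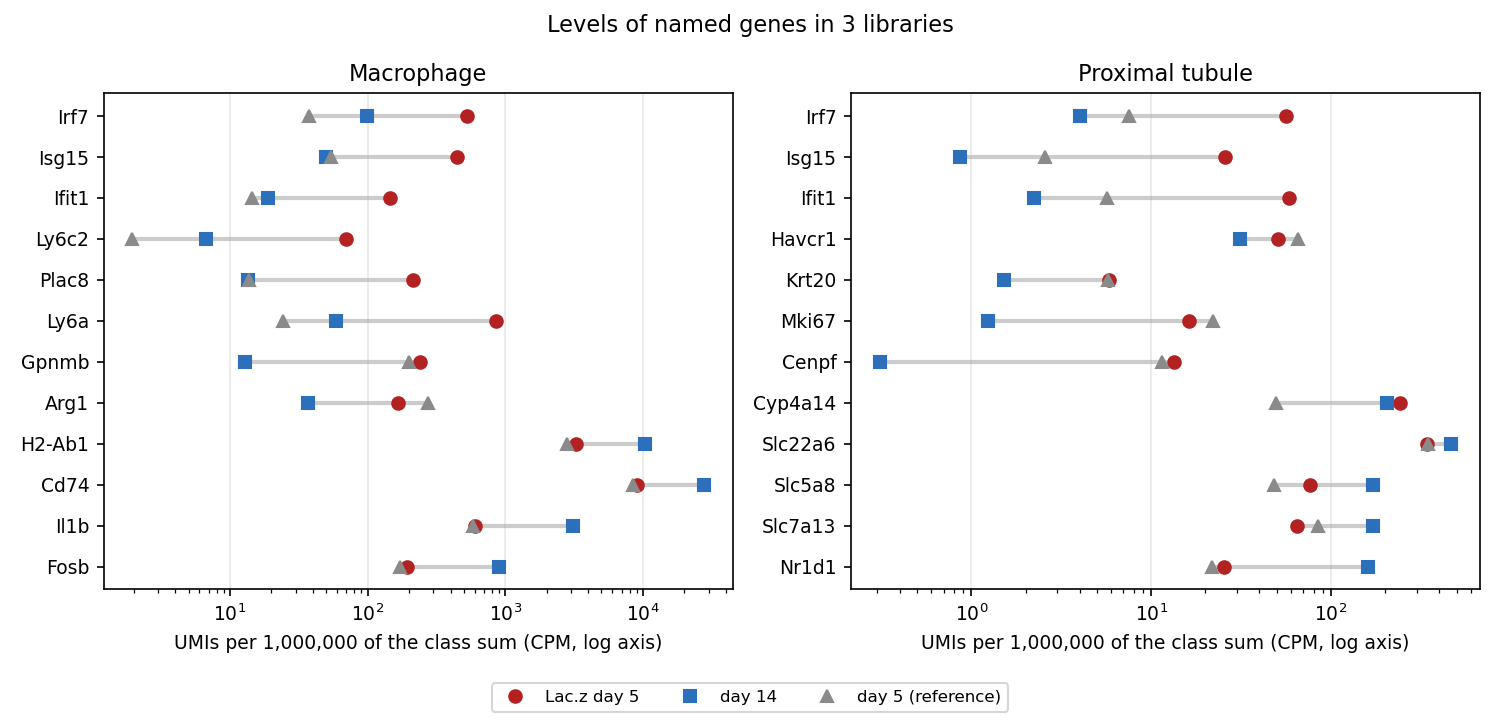
Levels of 12 genes each in macrophages and proximal tubule (CPM, log axis) in the Lac.z day 5, day 14 and day 5 libraries, 1 point per library. Isg15 stands alone in the treated library (447 CPM in macrophages, 25.7 in proximal tubule), H2-Ab1 and Il1b stand alone on day 14 in macrophages, and Mki67 in proximal tubule is at 16.2, 1.24 and 22 CPM.

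T cells numbered 255 with Lac.z on day 5, 679 on day 14 and 416 on day 5. Of 7052 genes, 580 (8.22%) were higher and 458 (6.49%) lower than on day 14. Interferon genes were higher in 39 of 43 and lower in none (median 1.19), with Isg15 at 328, 35.2 and 84.5 CPM (9.31-fold, 7.61 to 11.5), Ifit3 7.78-fold, Ifit1 6.40-fold and Slfn5 4.79-fold above day 14. Cell cycle genes were higher in 18 of 26 and lower in none (median 0.84). Mki67 was at 106, 66.1 and 129 CPM, and the cyclin Ccnb2 at 39.1, 11.7 and 39.7 CPM, near the day 5 level. The Mki67 log2 ratio to day 14 of 0.69 was 0.44, under 1.5-fold, with gates at 2000 UMIs. Of 35 cytotoxic and regulatory genes 1 was higher and 4 lower (median -0.09). Gzma, granzyme A, was at 488, 1052 and 392 CPM (2.15-fold below day 14, 1.99 to 2.34), and Gzmb, granzyme B, at 661, 513 and 171 CPM, within 1.5-fold of day 14 and above day 5. Gzmb was found in 46.3%, 27.5% and 26.2% of T cells (38.5%, 21.7% and 17.1% at 2000 UMIs) and in 0.0774% of Lac.z day 5 and 0.218% of day 14 proximal tubule barcodes. Itgae, the CD103 integrin of tissue-resident T cells, was at 13.3, 60.5 and 7.25 CPM (4.56-fold below, 2.85 to 7.73) and Nr4a3 at 12.6, 68.4 and 11.5 CPM. Macrophage markers summed to 399, 204 and 628 CPM in T cells. H2-Ab1 and Cd74, 2.42-fold and 2.53-fold above day 14 here, reversed when the 5% of T cells with most UMIs were left out.

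Dendritic cells numbered 57, 100 and 94. Of 4503 genes 676 (15%) were higher and 307 (6.82%) lower. With TMM scaling, which moved the ratios by 0.20, 310 were higher and 578 lower. Interferon genes were higher in 28 of 32 and lower in none (median 0.95), but in 16 with all gate minimums doubled. Isg15 was 8.37-fold and Ly6a, at 397, 21.9 and 84.7 CPM, 18.1-fold above day 14. Cxcl10 was at 86.4, 7.54 and 4.71 CPM (11.5-fold), whereas Cxcl9, mainly induced by interferon gamma, was at 21.0, 108 and 3.36 CPM (5.16-fold below day 14, 3.12 to 9.09). Class II genes gave 1 higher and 2 lower of 12 (median -0.15), with H2-Ab1 at 8972, 9204 and 8317 CPM, so the macrophage class II pattern was not seen at 1.5-fold in this class. Cd14, a lipopolysaccharide co-receptor, was at 12.3, 150 and 58.5 CPM (12.2-fold below). Cell cycle genes were higher in 16 of 20 and lower in none.

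Neutrophils numbered 86, 55 and 101, with median depths of 2622.5, 2949 and 2459 UMIs. Of 1191 genes 130 (10.9%) were higher and 253 (21.2%) lower, while TMM scaling, which moved the ratios by -0.28, gave 224 higher and 131 lower. Interferon genes were higher in 19 of 21 and lower in none (median 1.92), with Isg15 at 1182, 139 and 120 CPM (8.50-fold, 5.57 to 13.6) and Ifit1 on 192, 2 and 5 UMIs (a ratio of 55.2, 15.1 to 459). Mmp8, neutrophil collagenase, was at 876, 78.6 and 334 CPM (11.1-fold), and Lcn2 at 2802, 1046 and 1640 CPM (2.68-fold). Inflammatory genes were lower in 10 of 15 and higher in 1, Ccl3, with Il1rn and Icam1 2.74-fold and 4.25-fold below day 14. Macrophage markers summed to 3779, 2135 and 4084 CPM in neutrophils.

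Endothelial cells numbered 111, 198 and 172. Of 5231 genes 440 (8.41%) were higher and 493 (9.42%) lower. Interferon genes were higher in 35 of 43 and lower in none (median 0.84). Isg15 was at 906, 211 and 178 CPM (4.29-fold, 3.69 to 5.00), Irf7 at 743, 204 and 145 CPM (3.64-fold) and Slfn2 3.71-fold above day 14. Immediate early genes were lower in 15 of 21 and higher in none (median -0.89). Nr4a1 was at 15.2, 217 and 37.6 CPM (14.3-fold below day 14, 7.16 to 33.4) and the stress factor Atf3 at 152, 825 and 119 CPM (5.43-fold below). Of 23 endothelial state genes 1 was higher, Esm1, a tip-cell gene, at 646, 381 and 698 CPM, and 5 lower, among them Igfbp7 at 840, 1870 and 1340 CPM. The matrix regulator Ctgf was 4.96-fold below day 14. Class II genes were lower in 6 of 6, but H2-Ab1 reversed under 2 of the alternatives. Macrophage markers summed to 986, 673 and 1162 CPM there. Dendritic cell markers, which include class II genes, summed to 431, 1342 and 656 CPM, with 5, 11 and 6 of 11 genes detected. The part of either marker group in the class II values was not tested.

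Thick ascending limb cells numbered 60 with Lac.z on day 5 and 230 on day 14, and the 48 on day 5 were too few for a pairing. Of 5670 genes 304 (5.36%) were higher and 544 (9.59%) lower, or 388 and 448 with TMM scaling. Immediate early genes were lower in 13 of 20 and higher in none (median -1.03), and interferon genes were higher in 6 of 9. Isg15 was at 102 CPM with Lac.z and 11.7 on day 14 (8.69-fold, 5.37 to 14.7). Injury genes gave 10 higher and 5 lower of 26. Clu, clusterin, was at 1899 and 646 CPM (2.94-fold above) and Anxa1 3.76-fold above, while Vim and Cdkn1a, the cell cycle inhibitor p21, were 5.95-fold and 4.86-fold below day 14. Egf, a segment marker that falls after injury, was at 1372 and 2567 CPM (1.87-fold below, 1.76 to 1.99), and Umod was within 1.5-fold. Cxcl10 was 14.8-fold below day 14 in this class (6.19 to 46.2), opposite to its direction in macrophages, on 5 and 145 UMIs.

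Distal convoluted tubule cells numbered 84 and 226, with 43 on day 5. Of 5390 genes 178 (3.3%) were higher and 696 (12.9%) lower, and TMM scaling, which moved the ratios by -0.15, gave 321 and 450. Interferon genes were mostly under the 50-UMI minimum: 5 were measured, 2 higher and none lower. Immediate early genes were lower in 18 of 20 and higher in none (median -1.37). Injury genes gave 2 higher, Lcn2 (1564 and 523 CPM, 2.99-fold) and Spp1 (2.65-fold), and 10 lower of 24. S100g, the calcium carrier calbindin-D9k, was at 12173 and 5364 CPM (2.27-fold above), but 1.5-fold was not reached when gates were applied at equal depth. Pvalb, parvalbumin, a marker of the early segment, was at 132 and 471 CPM (3.58-fold below, 2.89 to 4.48).

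Of 773 genes measured in all 8 compared classes, Bst2 and Ifitm3 were higher with Lac.z on day 5 in each class, while Gm42418, Lars2 and Ppp1r15a were among those lower in each. These genes were chosen after their values were seen. Bst2, the antiviral tether tetherin, was 2.24-fold to 7.5-fold above day 14, and Ifitm3, which blocks virus entry, 1.58-fold to 4.13-fold. Gm42418, which overlaps ribosomal RNA sequence, was 2.67-fold to 17.2-fold below day 14. The software version in the file header differs between day 14 and both day 5 libraries, and its part in these genes was not tested.

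The number of genes past 1.5-fold placed the treated cells nearer to day 5 than to day 14 in each of the 6 classes with 3 pairings. The pairings share libraries, so this is a description. Both day 5 libraries also have the same software version in the file header (3.0.2), and day 14 has another (3.1.0). Day and version cannot be told apart in this ranking. On a set of genes at a mean of at least 50 CPM, 14.7% of 2433 macrophage genes differed between Lac.z day 5 and day 14, 6.41% between Lac.z day 5 and day 5, and 16.2% between day 14 and day 5. In proximal tubule, of 2577 genes, the values were 7.18%, 4% and 9.08%. T cells gave 7.98%, 2.95% and 6.79%, endothelial cells 14.8%, 10.6% and 12.9%, dendritic cells 18.2%, 5.83% and 16%, and neutrophils 37.3%, 24.5% and 29.6%. Neutrophils had the smallest class sums of the 6, at 287642 UMIs with Lac.z on day 5, 165338 on day 14 and 284064 on day 5. Counting error is larger in small sums, and its part in these percentages was not tested. In all 6 classes the smallest of the 3 values was that between the day 5 libraries, although proximal tubule shares were closest between Lac.z day 5 and day 14.

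**Figure D5:**
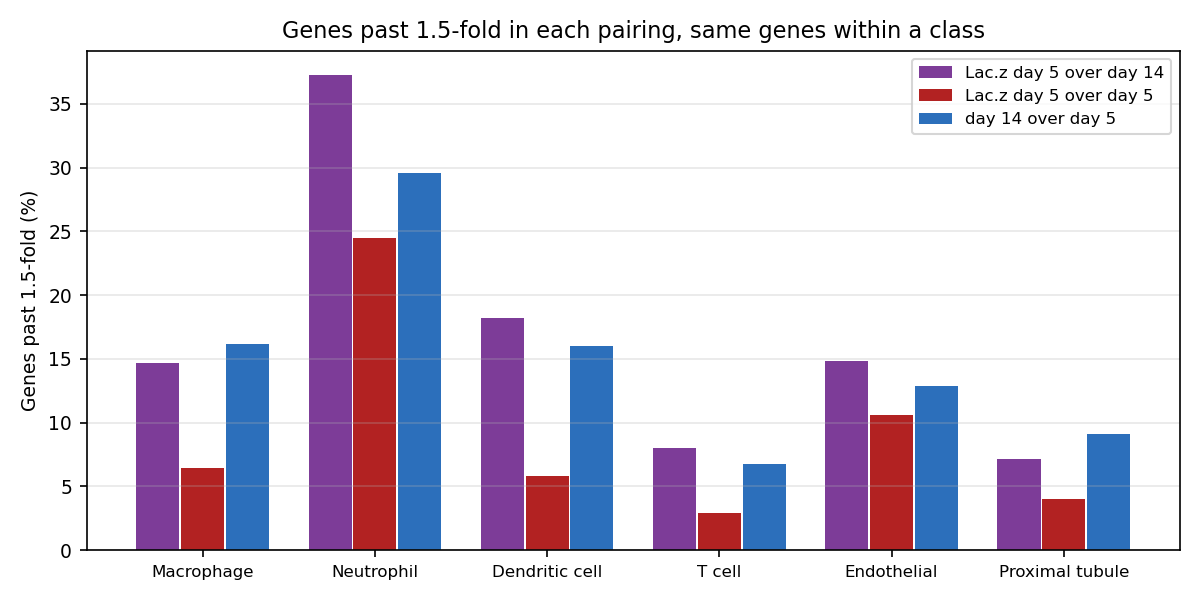
Percent of genes past 1.5-fold in each of 3 pairings of libraries, on genes with a mean of at least 50 CPM, for 6 cell classes. In each class the Lac.z day 5 against day 5 value is the lowest, for example 6.41% in macrophages beside 14.7% against day 14.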

How the data were processed

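Kidneys were dispersed by enzymes, strained and cleared of red cells, per the labels' protocols, and sequenced as single cells. The deposited files hold raw UMI counts per gene (31053 genes) and barcode, per the file headers, on mm10 per the submitters' processing notes; the aligner was not given in the sources used here. Barcodes with under 200 genes or over 50% mitochondrial UMIs were left out. Classes were gated on raw marker UMIs, barcodes in more than 1 gate were dropped, and no doublet caller was run. Classes with 50 barcodes in both libraries were compared by summed counts as CPM, with at least 50 UMIs per gene, 1 UMI added and 1.5-fold as the call. Intervals are 95% exact (Clopper-Pearson for shares, conditional binomial for ratios). No p-value is given. TMM scaling, UMI minimums of 10 and 200, mitochondrial limits and a minimum of 500 genes were tried. So were halved, doubled and depth-thinned gates and assigned mixed barcodes. Other alternatives left out the top 5% by UMIs, shared barcodes, or Havcr1 barcodes of proximal tubule. A shared gene set and macrophages under the tubule RNA cutoff were added after seeing the data. Named genes were the 8 highest and 8 lowest with 200 UMIs in macrophages and proximal tubule (4 and 4 elsewhere, leaving out gate, haemoglobin, mitochondrial, immunoglobulin and clone-named genes and those with over 50% of UMIs in 4 barcodes), the 3 highest and 3 lowest of each of 28 lists, and 20 fixed genes. Classes, lists and fixed genes were chosen with earlier results of these data known. Computation used Python 3.11.15, numpy 2.4.6, scipy 1.17.1, pandas 2.3.3 and matplotlib 3.10.9, and was tested on simulated data. A few genes are not reported here.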

Additional observations from a re-analysis of the deposited data

How the results depend on the processing

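No paired analysis was possible because each group had 1 library. The proximal tubule share ratio of 0.955 was 0.886 with a mitochondrial limit of 25%, 1.01 with doubled gates, 0.878 with gates at 2000 UMIs and 1.06 per gated tubule barcode. Per gated immune barcode the share ratio was 1.69 in macrophages, 1.38 in neutrophils, 0.504 in dendritic cells and 0.332 in T cells. Assigning barcodes of 2 gates gave 207 higher and 403 lower genes in neutrophils. TMM scaling gave 224 and 131 in neutrophils, 310 and 578 in dendritic cells, and 321 and 450 in distal convoluted tubule.

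Counts of genes moved with the minimum of UMIs, by the number of genes tested. A minimum of 200 gave, higher and lower, 838 and 345 in macrophages, 653 and 477 in proximal tubule, 134 and 117 in T cells, 122 and 79 in dendritic cells, 47 and 44 in neutrophils, 84 and 112 in endothelial cells, 61 and 104 in thick ascending limb, and 18 and 129 in distal convoluted tubule. A minimum of 10 gave 1374 lower in macrophages, 1991 and 1283 in proximal tubule, 1399 and 1086 in T cells, 2089 and 815 in dendritic cells, 569 and 1162 in neutrophils, 1392 and 1404 in endothelial cells, 1045 and 1484 in thick ascending limb, and 786 and 1815 in distal convoluted tubule. Genes of at least 50 CPM gave 229 and 129, 73 and 112, 128 and 80, 308 and 131, 268 and 611, 254 and 237, 98 and 141, and 49 and 216, in the same order of classes. More proximal tubule genes were then lower than higher.

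Some genes changed sign on the log2 scale. H2-Ab1 in endothelial cells went from -1.08 to 0.76 with halved gates and to 0.59 without the top 5% by UMIs. Cd74 in distal convoluted tubule went from -1.22 to 0.53 with halved gates and to 0.17 with barcodes of 2 gates assigned. Cxcl10 in endothelial cells went from 1.76 to -0.48 with gates at 2000 UMIs, and Cx3cr1 in proximal tubule from 0.98 to -0.21 with barcodes of 2 gates assigned. In T cells without the top 5% by UMIs, H2-Ab1 went from 1.28 to -0.49 and Cd74 from 1.34 to -0.72. The cause was not tested. Among the genes named by ranking or as fixed genes, each counted once per class, 132 were called. Of these, 16 lost the call or changed sign under at least 1 alternative. Genes named only as list members were not put through the alternatives singly. The injury median in proximal tubule (0.36) was 0.13 with halved gates and -0.02 with gates at 2000 UMIs, and the cell cycle median (1.94) was 1.32 with gates at 2000 UMIs and 1.04 with a minimum of 200 UMIs. Small classes such as stromal cells (5 barcodes with Lac.z) limit what depth can show.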

Other observations

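Haemoglobin UMIs were concentrated in few barcodes. In treated proximal tubule 22100 of 23464 haemoglobin UMIs lay in 4 barcodes, in treated neutrophils 10015 of 10036, and in day 14 macrophages 3292 of 3360. Haemoglobin genes were therefore left out of the named genes.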
